A study of Homo sapiens with 6 samples.

Results

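The 10 genes described here encode enzymes that salvage purine bases, interconvert purine nucleotides and make or remove adenosine: GDA, PNP, HPRT1, APRT, ADA, ADK, AMPD2, AMPD3, XDH and NT5E. They were read by symbol from 27980 gene symbols, and all 10 passed the filter on low counts that left 15473 genes for testing. The cells were RKO, a human line from a poorly differentiated carcinoma of the colon. Their RNA was read in 3 libraries of cells stably carrying a lentiviral short hairpin against TRIP6 (shTRIP6, genotype TRIP6 knockdown) and in 3 libraries of cells carrying a scrambled hairpin (shControl, genotype given as WT). Both groups were infected with lentivirus and, 36 h later, put under puromycin at 5 µg/ml, which was kept up over weeks. The labels name no clone and do not say how many hairpin sequences were used per group.

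The genes were chosen by function and with the comparison of their CPM between shTRIP6 and shControl in these libraries already known. Their fold changes and calls are therefore given as a description, and nothing is supported with them.

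Purine nucleotides are built from small precursors in the costly de novo pathway, or recovered from free bases and nucleosides by salvage. In salvage, PNP splits inosine and guanosine into ribose phosphate and the bases hypoxanthine and guanine, HPRT1 joins those bases to phosphoribosyl pyrophosphate, and APRT does the same for adenine. GDA turns guanine into xanthine, and XDH turns hypoxanthine and xanthine into uric acid, so both draw bases away from salvage. Adenosine, a signalling nucleoside outside the cell, is released from AMP by NT5E, deaminated to inosine by ADA or phosphorylated back to AMP by ADK, while AMPD2 and AMPD3 deaminate AMP inside the cell.

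Total counts ran from 31096598 to 32089298 in shTRIP6 and from 29605764 to 30949334 in shControl, and 1 count was worth 0.0314 to 0.0336 CPM (a count relative to its library's TMM-scaled total). TRIP6 itself stood at 19.5 ± 0.203 CPM in shTRIP6 cells against 80.3 ± 6.27 CPM in shControl (SD, n = 3 each), which is 24.3% of the shControl level. Replicates differed by more than sampling noise. Their chi-square, divided by its degrees of freedom, was 3.05 to 4.59 within shTRIP6 and 4.81 to 11.7 within shControl, with both pairs that hold shControl replicate 1 at 10.7 or more. Although titled as biological replicates, the libraries are not said to come from separate cultures, so tests measure only the spread between these libraries. Of the epithelial markers, the keratin genes KRT8 and KRT18 were abundant in both groups, at 1719 ± 72.9 and 885 ± 34.4 CPM in shTRIP6 cells against 1804 ± 99.4 and 871 ± 54 CPM in shControl, and KRT19 stood at 50.6 ± 3.15 CPM in shTRIP6 cells against 13.8 ± 2.27 CPM in shControl. EPCAM, KRT20 and VIL1 had 0 counts in all 6 libraries and CDH1 was under 0.5 CPM. The summed leukocyte markers came to 237 to 246 CPM in shTRIP6 and 188 to 236 CPM in shControl. Of the 11 leukocyte markers 3 were tested, and CSF1R was not called. The 2 others were called higher, beside 29.0% of all genes tested. These were CD68, at 239 ± 4.68 CPM in shTRIP6 and 208 ± 24.9 CPM in shControl, whose call was lost without shControl replicate 2, and CD14, at 2.21 ± 0.54 CPM in shTRIP6 and 0.52 ± 0.189 CPM in shControl. PTPRC and CD3E were under 0.5 CPM. Erythroid markers summed to at most 0.129 CPM in shTRIP6 and 0.321 CPM in shControl.

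Of the 10 genes, 8 were called higher in shTRIP6, GDA was called lower and AMPD3 was not called (edgeR's quasi-likelihood test, Benjamini-Hochberg adjusted p under 0.05 over all genes tested). Over all 15473 genes the call fell on 60.1%, with 29.0% called higher and 31.2% called lower. The median log2 fold change of the 10 genes was 0.44, beside -0.00 over all genes tested. The libraries of the 2 groups did not overlap for 8 genes that were higher in shTRIP6 and for 1 that was lower, where 31.8% and 33.5% of all tested genes did so. Under all 14 alternative settings, 8 were called higher and 1 lower. In RNA from bulk cells, fewer cells that make a transcript and less transcript in each cell cannot be told apart.

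**Figure D1:**
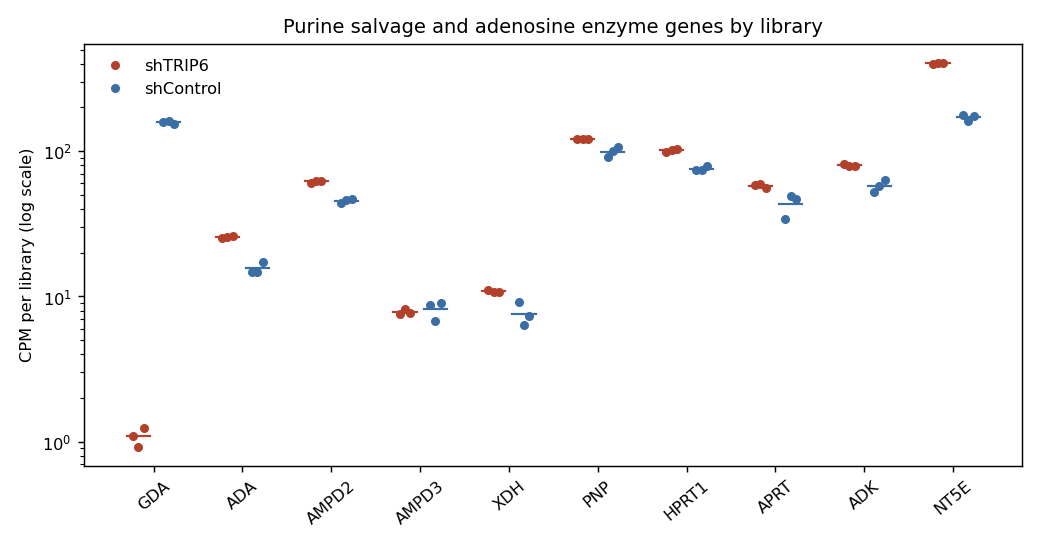
CPM of each gene in each library on a log scale, with shTRIP6 in red left of shControl in blue, points for libraries and bars for group means (n = 3 each). GDA drops to about 1 CPM in shTRIP6, AMPD3 overlaps between the groups, and the 8 other genes lie higher in every shTRIP6 library.

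GDA, guanine deaminase, was nearly absent from shTRIP6 cells. It had 35, 29 and 39 counts in the shTRIP6 libraries, against 4725, 5004 and 4735 counts in the shControl libraries. That is 1.1, 0.927 and 1.25 CPM in shTRIP6, against 159, 161 and 153 CPM in shControl, with no overlap. The mean was 1.09 ± 0.163 CPM in shTRIP6 and 157 ± 3.91 CPM in shControl, so 0.694% of the shControl level was left (log2 fold change -7.17 ± 0.09 SE). Only 111 of the tested genes had a lower log2 fold change. The coefficient of variation of 14.9% between shTRIP6 libraries was under the 17.1% that counting alone gives at so few counts, so the residual level was a like small number of reads in each library. GDA (ENSG00000119125.16) spans 72114595 to 72257193 of chromosome 9 in GRCh38, plus strand, and no annotated exon of another gene overlaps its exons.

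The start regions of the genes at either end of the range, GDA and NT5E, are shown to set their CpG content side by side. Each is RefSeq's window of 250 bases before to 50 bases after the start (GRCh38.p14, plus strand), written 5′ to 3′ with each CpG dinucleotide in capitals. The GDA window is chr9:72149190-72149489, a start inside the longer GENCODE gene span, and the NT5E window is chr6:85449833-85450132.
GDA: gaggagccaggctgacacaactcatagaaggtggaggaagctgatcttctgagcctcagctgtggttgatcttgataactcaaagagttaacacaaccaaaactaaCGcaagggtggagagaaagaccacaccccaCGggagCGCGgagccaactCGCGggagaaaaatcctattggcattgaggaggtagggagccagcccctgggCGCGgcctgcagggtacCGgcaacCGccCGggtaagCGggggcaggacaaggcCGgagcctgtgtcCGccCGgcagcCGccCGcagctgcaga
NT5E: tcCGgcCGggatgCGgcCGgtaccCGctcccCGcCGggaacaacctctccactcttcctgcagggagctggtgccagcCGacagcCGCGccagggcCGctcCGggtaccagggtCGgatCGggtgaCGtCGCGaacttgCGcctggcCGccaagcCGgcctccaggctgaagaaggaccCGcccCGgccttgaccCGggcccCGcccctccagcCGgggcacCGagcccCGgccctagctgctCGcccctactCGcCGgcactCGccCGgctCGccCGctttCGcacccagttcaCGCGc

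The GDA window held 17 CpG dinucleotides, with an observed over expected ratio of 0.62. The NT5E window held 37, with a ratio of 0.90. The median over 35116 RefSeq windows was 14 CpG and a ratio of 0.58, and 54% of windows held fewer than GDA and 88.7% fewer than NT5E. All 10 genes matched windows, 17 in all, and the ratio ran from 0.18 in XDH to 1.06 in APRT among the genes with a single window. The TEAD motif GGAATG was found on either strand in windows of PNP, APRT and ADK and in 14% of all windows. A window of AMPD3 held the AP-1 motif TGANTCA (7.71% of all windows), a window of AMPD2 held the E-box CACGTG (7.26%), and the cAMP response element TGACGTCA was in none of them (1.85%). The GDA and NT5E windows held none of these 4 motifs. Factor binding and methylation there were not analysed here.

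The genes around GDA were lower by far less. Within 1000 kb of either end of GDA, a distance set after GDA's values were seen, 5 other genes were tested and all 5 were called lower, beside 31.2% of all genes tested. The nearest upstream, C9orf85, stood at 4.51 ± 0.279 CPM in shTRIP6 cells against 5.99 ± 0.123 CPM in shControl (log2 fold change -0.41 ± 0.16, edgeR adjusted p = 0.0306). That call was lost with upper-quartile scaling and on leaving out any 1 of 4 libraries, at edgeR adjusted p = 0.053 to 0.0948. The nearest downstream, ZFAND5, stood at 138 ± 1.84 CPM in shTRIP6 cells against 172 ± 9.07 CPM in shControl (-0.32 ± 0.05, adjusted p = 2.03e-05). CEMIP2, a cell surface hyaluronidase gene, had the lowest value of the 5, at 22.1 ± 0.557 CPM in shTRIP6 cells against 52.8 ± 3.18 CPM in shControl (-1.26 ± 0.07, adjusted p = 2.54e-11). GDA thus fell alone among its tested neighbours to under 1% of its shControl level. Within the same distance of NT5E, 3 of 5 tested genes were called higher and 1 lower, beside 29.0% and 31.2% of all genes, with a median log2 fold change of 0.32.

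**Figure D2:**
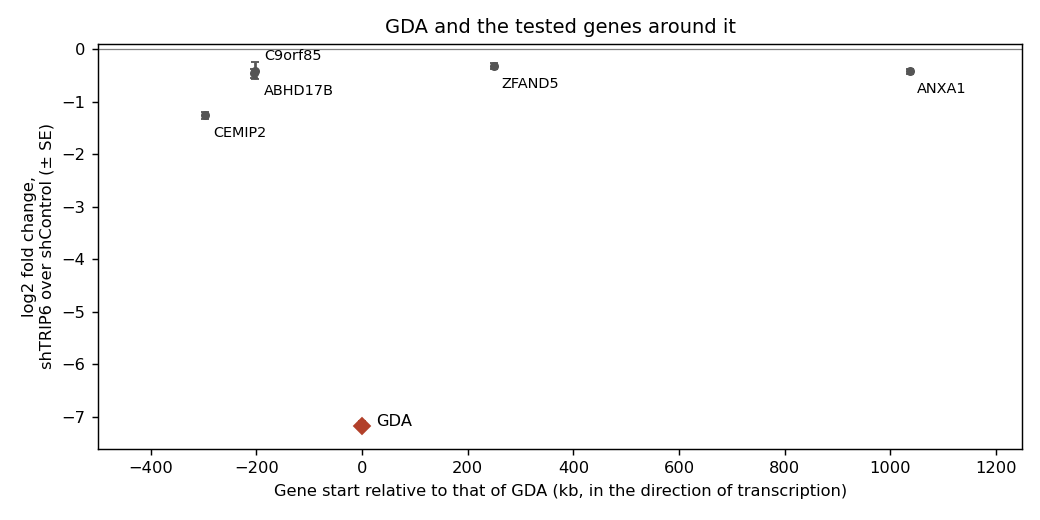
Log2 fold change ± SE of GDA (red diamond) and of the 5 tested genes within 1000 kb of either end of it (grey), by the distance of their starts from that of GDA. The neighbours lie between -1.26 and -0.32, and GDA at -7.17.

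The other genes of base breakdown and deamination were higher or level. XDH, xanthine oxidoreductase, stood at 11, 10.8 and 10.7 CPM in shTRIP6 cells against 9.21, 6.39 and 7.31 CPM in shControl. Its groups did not overlap, but shControl replicate 1 came near the shTRIP6 libraries (mean 10.8 ± 0.138 CPM in shTRIP6 cells against 7.63 ± 1.44 CPM in shControl, log2 fold change 0.51 ± 0.14). ADA, which deaminates adenosine, stood at 25.3, 25.7 and 26 CPM in shTRIP6 cells against 14.8, 14.8 and 17.3 CPM in shControl. With means of 25.7 ± 0.345 CPM in shTRIP6 and 15.7 ± 1.42 CPM in shControl, its rise was 0.71 ± 0.09 on the log2 scale, the second largest of the 10 genes. In GRCh38, XDH spans 31334321 to 31414715 of chromosome 2 on the minus strand and ADA 44619522 to 44652233 of chromosome 20 on the minus strand. Exons of ADA overlap those of PKIG, which stood at 19.2 ± 0.322 CPM in shTRIP6 cells against 16.3 ± 0.35 CPM in shControl, and whether counting used strand is not stated.

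AMPD2 and AMPD3 are paralogues that deaminate AMP to IMP. AMPD2 stood at 60.1, 62.6 and 62.8 CPM in shTRIP6 cells against 44, 46.2 and 46.6 CPM in shControl, with every shTRIP6 library above every shControl library (log2 fold change 0.44 ± 0.06). AMPD3 stood at 7.62, 8.22 and 7.68 CPM in shTRIP6 cells against 8.8, 6.77 and 8.96 CPM in shControl. The shTRIP6 libraries of AMPD3 lay inside the shControl range, with a log2 fold change of -0.06 ± 0.14 that became 0.01 without shControl replicate 3. Per kilobase of exon, AMPD2 was 7.85, 7.59 and 8.14 times AMPD3 in the shTRIP6 libraries against 4.97, 6.79 and 5.18 times in the shControl libraries. These ratios did not overlap, and their difference was not tested. AMPD2 spans 109616104 to 109632051 of chromosome 1 on the plus strand, and AMPD3 10308313 to 10507579 of chromosome 11 on the plus strand. Exons of AMPD2 overlap those of GNAI3, an abundant gene at 146 ± 2.05 CPM in shTRIP6 and 136 ± 7.25 CPM in shControl, and of GNAT2.

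The enzymes that recover bases were all higher by modest amounts. HPRT1 stood at 99.2, 102 and 104 CPM in shTRIP6 cells against 74.3, 73.8 and 78.4 CPM in shControl, far apart beside the spread within each group (log2 fold change 0.43 ± 0.05). PNP stood at 121, 122 and 122 CPM in shTRIP6 cells against 91.5, 100 and 106 CPM in shControl (0.30 ± 0.06), the smallest rise of the 8. APRT stood at 58.6, 59.4 and 56 CPM in shTRIP6 cells against 34.2, 49 and 46.5 CPM in shControl (0.42 ± 0.09). The low APRT value of shControl replicate 1 carried part of that difference, since the log2 fold change was 0.28 without this library. HPRT1 spans 134460153 to 134520513 of chromosome X on the plus strand, PNP 20468954 to 20477094 of chromosome 14 on the plus strand and APRT 88809339 to 88811944 of chromosome 16 on the minus strand. Processed pseudogenes of HPRT1 are annotated, and reads shared with them could not be told apart in these counts.

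NT5E, the ecto-nucleotidase CD73, had the largest rise of the 10 genes. It stood at 399, 403 and 402 CPM in shTRIP6 cells against 178, 161 and 175 CPM in shControl, and its mean CPM was the highest of the set in both groups. The means of 401 ± 1.8 CPM in shTRIP6 and 171 ± 8.91 CPM in shControl put shTRIP6 at 234% of shControl (log2 fold change 1.23 ± 0.05), and 466 tested genes had a higher log2 fold change. ADK, adenosine kinase, stood at 82, 79.1 and 79.3 CPM in shTRIP6 cells against 52.7, 57.6 and 62.9 CPM in shControl, again with no overlap (0.47 ± 0.06). NT5E spans 85449584 to 85495791 of chromosome 6 on the plus strand and ADK 74151185 to 74709303 of chromosome 10 on the plus strand. NT5E also marks fibroblasts, whose other markers fell more often than they rose: 2 of 10 tested rose and 6 fell. Those are 20% and 60%, beside 29.0% and 31.2% of all genes tested, with a median log2 fold change of -2.09. Their summed level was 160 to 181 CPM in shTRIP6 and 124 to 141 CPM in shControl, mostly THY1 at 153 ± 10.5 CPM in shTRIP6 cells against 89.3 ± 5.03 CPM in shControl, with PDGFRB at 13.9 ± 1.18 CPM in shTRIP6 cells against 6.88 ± 1.23 CPM in shControl. Of the fibroblast markers under 10 CPM, DCN and POSTN had 0 counts in shTRIP6, against 95 and 112 counts over the shControl libraries. FAP stood at 0.328 ± 0.0763 CPM in shTRIP6 cells against 15 ± 1.33 CPM in shControl. MFAP5 stood at 0.434 ± 0.202 CPM in shTRIP6 cells against 10.2 ± 1.69 CPM in shControl, while LUM and COL1A2 were not called. The endothelial markers summed to 0.345 to 0.45 CPM in shTRIP6 and 2.28 to 2.57 CPM in shControl. The part of either cell type in the NT5E result was not tested.

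**Figure D3:**
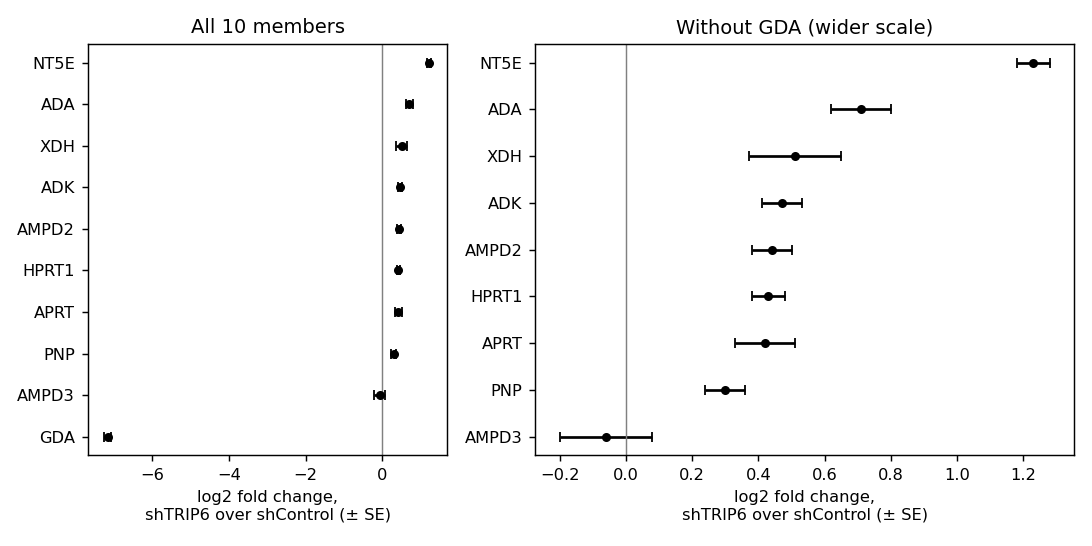
Log2 fold change of shTRIP6 over shControl ± SE from the edgeR fit for the 10 genes (left) and without GDA on a wider scale (right). NT5E at 1.23 leads, 7 genes lie between 0.30 and 0.71, AMPD3 lies at -0.06 and GDA at -7.17.

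Levels of different genes were set against each other as FPKM, CPM per kilobase of the union of annotated exons. In shTRIP6 the order ran NT5E (88.5 ± 0.398 FPKM), HPRT1 (62.8 ± 1.62), APRT (32.2 ± 0.981), PNP (29.5 ± 0.215), ADK (25.2 ± 0.502), AMPD2 (9.06 ± 0.217), ADA (9.01 ± 0.121), XDH (1.8 ± 0.0229), AMPD3 (1.15 ± 0.048) and GDA (0.138 ± 0.0207). Only AMPD2 and ADA overlapped there among neighbours in the order. In shControl it ran HPRT1 (46.5 ± 1.56 FPKM), NT5E (37.8 ± 1.97), APRT (24 ± 4.39), PNP (24 ± 1.72), GDA (19.9 ± 0.494), ADK (18.1 ± 1.61), AMPD2 (6.68 ± 0.208), ADA (5.49 ± 0.498), XDH (1.26 ± 0.238) and AMPD3 (1.2 ± 0.18). APRT and PNP, GDA and ADK, and XDH and AMPD3 overlapped as neighbours in that order. GDA thus held the fifth place of 10 in shControl and the last in shTRIP6. As a share of the 10 genes' summed FPKM, GDA made up 0.045% to 0.0611% in shTRIP6 libraries against 10.1% to 11.3% in shControl libraries, and NT5E 34.1% to 34.2% in shTRIP6 libraries against 19.2% to 22.2% in shControl libraries. The HPRT1 share was 23.7% to 24.7% in shTRIP6 and 24.6% to 25.8% in shControl. The sum itself was 257 to 261 FPKM in shTRIP6 libraries against 177 to 193 FPKM in shControl libraries, so a like share is not a like level.

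**Figure D4:**
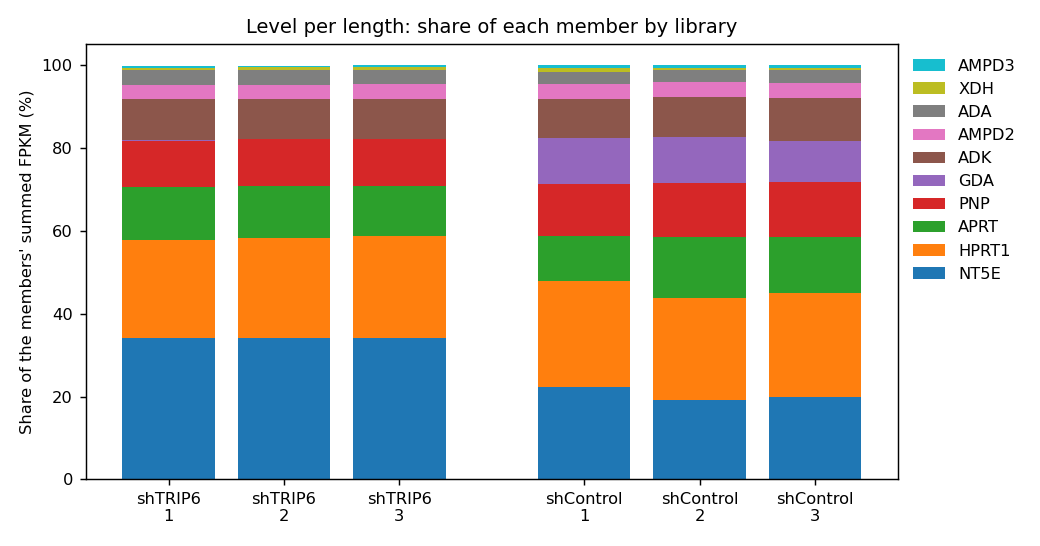
Share of each gene in the summed FPKM of the 10 genes, 1 bar per library with shTRIP6 left of shControl. The GDA share of 10.1% to 11.3% in shControl is too thin to see in shTRIP6, where NT5E takes 34.1% to 34.2% of each bar.

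The shTRIP6 libraries were closer to each other than the shControl libraries for most of these genes. The coefficient of variation ran from 0.45% for NT5E to 14.9% for GDA in shTRIP6, with a median of 2.2%, against 2.48% for GDA to 18.8% for XDH in shControl, with a median of 8.01%. In shTRIP6 6 of the 10 genes varied by no more than counting error alone, and in shControl 0 of 10 did. The share of all genes that did so was not computed. The wider spread in shControl was not particular to these genes. Over all genes with at least 20 counts in a pair, chi-square over its degrees of freedom was 4.81 to 11.7 in shControl and 3.05 to 4.59 in shTRIP6. GDA was the exception in order, with the widest relative spread of the 10 in shTRIP6 and the narrowest in shControl.

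The genes with the profile most like that of GDA were sought among 10206 tested genes averaging at least 10 CPM, by the root mean square distance of centred log2 values over the 6 libraries. SMOC1, a secreted matrix protein gene, was nearest at a distance of 0.0589, with 0.786 ± 0.0993 CPM in shTRIP6 cells against 126 ± 5.13 CPM in shControl. The somatostatin receptor gene SSTR1 (distance 0.203, 0.404 ± 0.165 CPM in shTRIP6 cells against 71.9 ± 2.92 CPM in shControl) and the aldo-keto reductase gene AKR1C1 (0.214, 1.14 ± 0.237 CPM in shTRIP6 cells against 135 ± 9.18 CPM in shControl) came next. AKR1C1 has near-identical relatives whose reads it may share. Nearest to NT5E were FUOM, a fucose mutarotase gene (distance 0.0311, 20.1 ± 0.347 CPM in shTRIP6 cells against 8.26 ± 0.661 CPM in shControl), KCTD20 (0.0313, 254 ± 5.05 CPM in shTRIP6 cells against 109 ± 2.56 CPM in shControl) and HSPA2 (0.0436, 23.8 ± 1.04 CPM in shTRIP6 cells against 10.1 ± 0.456 CPM in shControl).

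Outside the set, 68 of 80 other purine genes in 5 lists were tested, of which 32 rose (47.1%, beside 29.0% of all genes tested) and 16 fell (23.5%, beside 31.2%), with a median log2 fold change of 0.11. Receptors and transporters of adenosine and other nucleosides moved both ways. Of 8 tested genes in a list of 11, 5 rose (62.5%, beside 29.0% of all genes tested) and 2 fell (25%, beside 31.2%). Their median log2 fold change was 0.62. The receptor gene ADORA2A stood at 3.26, 2.88 and 2.47 CPM in shTRIP6 cells against 0, 0.257 and 0.517 CPM in shControl (log2 fold change 3.44 ± 0.50, edgeR adjusted p = 8.15e-06), although its exons overlap those of ADORA2A-AS1 and the readthrough gene SPECC1L-ADORA2A. Its log2 fold change was 4.41 without shControl replicate 3 and 2.88 without shControl replicate 1. The concentrative transporter gene SLC28A3 rose to 2.43 ± 0.233 CPM in shTRIP6 cells against 0.498 ± 0.235 CPM in shControl (2.27 ± 0.35, adjusted p = 1.94e-05). Of the equilibrative transporter genes, SLC29A3 (-1.07 ± 0.16) and SLC29A2 (-0.56 ± 0.11) fell, while SLC29A1, given below, and SLC29A4 were called higher. SLC29A4, named after its values were seen, rose by 0.41 ± 0.17 with overlapping groups (edgeR adjusted p = 0.0414). Among genes named after their values were seen, the receptor gene ADORA1 stood at 27.7 ± 1.75 CPM in shTRIP6 cells against 9.92 ± 0.398 CPM in shControl (1.48 ± 0.09), and the transporter gene SLC29A1 at 238 ± 12.7 CPM in shTRIP6 cells against 134 ± 3.2 CPM in shControl (0.83 ± 0.05). ADORA2B, at 20.2 ± 1.48 CPM in shTRIP6 and 23.4 ± 2.82 CPM in shControl, did not pass (edgeR adjusted p = 0.0718), but was called lower without shControl replicate 1 (-0.30, adjusted p = 0.00382).

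Of the ecto- and intracellular nucleotidases other than NT5E, 14 of 21 were tested, 7 rose and 3 fell. Those are 50% and 21.4%, beside 29.0% and 31.2% of all genes tested. The median was 0.17, the same with ALPL, which had 0 counts in shControl, set at its floor. ENPP1, which makes AMP and pyrophosphate from ATP outside the cell, rose to 13.7 ± 1.24 CPM in shTRIP6 cells against 4.11 ± 0.312 CPM in shControl (1.73 ± 0.14, edgeR adjusted p = 2.52e-09). The mitochondrial nucleotidase gene NT5M rose by 0.87 ± 0.26. ALPP, placental alkaline phosphatase, fell to 0.188, 0.032 and 0.225 CPM in shTRIP6, against 18.8, 16.3 and 14.6 CPM in shControl (-6.76 ± 0.27, adjusted p = 8.12e-14), and is a near-identical copy of ALPG. The cytosolic IMP nucleotidase gene NT5C2 fell by 0.50 on the log2 scale. ENTPD1 (CD39), named after its values were seen, stood at 41.5 ± 2.64 CPM in shTRIP6 cells against 36.3 ± 1.61 CPM in shControl (0.20 ± 0.07, edgeR adjusted p = 0.0244), a call lost on leaving out any 1 of 3 libraries (adjusted p = 0.0819 to 0.0949).

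Among other enzymes of purine interconversion and breakdown, 14 of 16 were tested, 7 rose and 4 fell, with a median of 0.19. As shares, 50% rose and 28.6% fell, beside 29.0% and 31.2% of all genes tested. MTAP, which releases the adenine that APRT uses, stood at 0.471, 0.639 and 0.546 CPM in shTRIP6 cells against 44, 41.7 and 41 CPM in shControl (-6.25 ± 0.13, edgeR adjusted p = 5.67e-18). This low value was known when the list was made. MOCOS, the sulfurase that completes the molybdenum cofactor of XDH, stood at 0.972, 0.448 and 0.932 CPM in shTRIP6 cells against 6.28, 7.48 and 8.08 CPM in shControl (-3.21 ± 0.25, adjusted p = 2.19e-09). AOX1, the other enzyme served by MOCOS, was named after its values were seen and stood at 62.5 ± 1.33 CPM in shTRIP6 cells against 39.9 ± 0.849 CPM in shControl (0.65 ± 0.06, adjusted p = 2.73e-08). GMPR, GMP reductase, rose by 1.46 ± 0.18 and ITPA, which removes inosine triphosphate, by 0.66 ± 0.08.

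All 15 genes of the de novo pathway were tested, 7 rose and 4 fell, with a median of 0.03. Those are 46.7% and 26.7%, beside 29.0% and 31.2% of all genes tested. PRPS1, which makes the phosphoribosyl pyrophosphate that HPRT1 and APRT use, rose to 173 ± 6.89 CPM in shTRIP6 cells against 103 ± 4.62 CPM in shControl (0.75 ± 0.05, edgeR adjusted p = 3.99e-10), while its paralogue PRPS2 fell by 0.24 on the log2 scale. IMPDH2, the first step towards GMP, rose by 0.42 ± 0.04, and the muscle-type adenylosuccinate synthase gene ADSSL1 fell to 0.169 ± 0.173 CPM in shTRIP6 cells against 3.11 ± 0.264 CPM in shControl (-4.16 ± 0.49, and -5.20 without shTRIP6 replicate 1). Of 17 nucleotide kinase and ribonucleotide reductase genes, 6 rose and 3 fell, with a median of 0.08. In shares, 35.3% rose and 17.6% fell, beside 29.0% and 31.2% of all genes tested. RRM2 (0.71 ± 0.04) and RRM2B (0.67 ± 0.08) rose most, and AK9 (-1.12 ± 0.31, and -0.73 without shControl replicate 1) and AK4 (-0.99 ± 0.07) fell most.

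**Figure D5:**
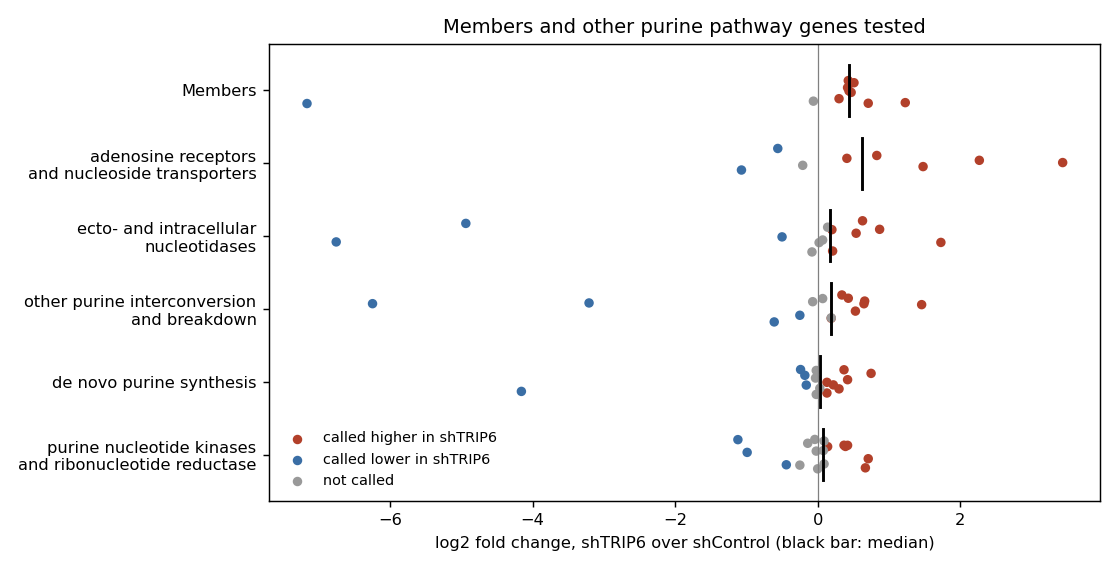
Log2 fold change of shTRIP6 over shControl for the tested genes of the set and of 5 lists of other purine genes, 1 point per gene, with black bars at list medians. ALPL, with 0 counts in shControl, is not drawn, and the set's median of 0.44 lies between those of the receptor and transporter list (0.62) and of the 4 other lists (0.03 to 0.19).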

How the data were processed

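Each library's deposited file held raw counts, whole and not normalized, for 27980 gene symbols. TopHat2, edgeR, limma and hg38 are listed in the submitters' processing notes, with no role. How reads were assigned to genes, and with which annotation and strand setting, is not stated. Groups and replicate numbers came from the sample titles.

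The groups were tested with edgeR 4.0.16 under R 4.3.3 (filterByExpr, TMM, quasi-likelihood test, group alone in the model) over all genes, and p-values were adjusted by Benjamini-Hochberg over all genes tested. SEs were log2 fold changes over root F. CPM used TMM-scaled library sizes. In a check of the medians of the 5 purine lists, a gene with 0 counts in a whole group was given a floor of 3 counts over that group. Fold changes and the marker-list median were taken from the fit without a floor. The members and lists were chosen with earlier results of these data known. Genes named from a list were the 2 largest rises and 2 largest falls among those called with a mean of 1 CPM or more, and the markers at 10 CPM or more. Some markers under 10 CPM were named outside this rule. The 3 genes nearest to GDA and to NT5E used log2(CPM + 0.5).

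Coordinates, exon overlaps and lengths came from GENCODE release 29 (GRCh38), where 25772 symbols were found by name. Promoter windows came from RefSeq (GRCh38.p14). The code of the tests was checked on simulated counts with few changed genes and a single dispersion. That setting is unlike these libraries, so the check does not bear on false calls in them. Alternatives were no scaling, upper-quartile or RLE scaling, limma-voom (limma 3.58.1), DESeq2 1.42.0, keeping all genes or only those at 1 CPM in 3 libraries, a block for the replicate number, dropping each library in turn, and, for FPKM, the longest transcript. Counting errors treat reads as independent molecules, which reads without molecular identifiers are not.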

Additional observations from a re-analysis of the deposited data

How the results depend on the processing

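Among the 10 genes, 8 higher calls and 1 lower call were found under all 14 alternatives. GDA ranged from -7.26 to -7.06 and NT5E from 1.19 to 1.28 on the log2 scale. Over all genes, 4018 to 5073 were called higher, beside 4487, and 4368 to 5049 lower, beside 4820. Upper-quartile scaling moved the median of all genes to 0.04. Of 52 genes followed through the alternatives, 9 of them named outside the rule, 45 kept their direction and side of the threshold throughout. AMPD3 turned to 0.01 without shControl replicate 3, where its range over the libraries left out was -0.18 to 0.01. KRT18 (0.02, range -0.03 to 0.06 over the libraries left out) turned to -0.03 and KRT8 was called at -0.11 without shControl replicate 1, and the call of CD68 was lost without shControl replicate 2 (edgeR adjusted p = 0.092). ADORA2B was called at -0.30 without shControl replicate 1. The call of ENTPD1 was lost without shTRIP6 replicate 2 or 3 or shControl replicate 2, and that of C9orf85 with upper-quartile scaling or without shTRIP6 replicate 1 or 2 or shControl replicate 2 or 3. With limma-voom, ADORA2A moved to 4.39 and ADSSL1 to -4.94. The causes were not tested. Without a low-count filter 5 nucleotidase genes were called lower, in place of 3. By the longest transcript, AMPD3 took place 8 and XDH place 9 by FPKM in shTRIP6, and in shControl APRT took place 2, NT5E 3, AMPD3 9 and XDH 10.

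The labels do not say whether equal replicate numbers share a culture or day. The correlations of their deviations were -0.006, -0.009 and -0.052, beside -0.044 to 0.06 for unequal numbers. With 3 libraries per group, such values cannot settle whether the libraries were paired. With the number as a replicate block, 4377 genes were called higher and 4702 lower, and the calls of the 10 genes did not change. At 29 to 39 counts per library, counting error of 17.1% limits how exactly the residual GDA level is known. ADORA2A, SLC28A3, ALPP and ADSSL1 rest on few counts in their lower group.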
